A study of Mus musculus with 179 samples.

Results

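The genes described here encode the nuclear subunits of the oxidative phosphorylation complexes. They are the 83 protein-coding identifiers, of 32100 in the UMI table, whose mouse symbol begins with Ndufa, Ndufb, Ndufc, Ndufs or Ndufv followed by a digit, Uqcr, Atp5, or Cox and a digit between 4 and 8, together with Sdha, Sdhb, Sdhc, Sdhd and Cyc1. They carry 82 symbols, because Atp5o has 2 identifiers, and were measured in single cells of 1 group, all of the series. The cells were isolated as acinar cells, which make digestive enzymes, from the exocrine pancreas of wild-type C57BL6 mice, and were cultured for 9 days as organoids in Matrigel, a basement membrane gel. Their RNA was read by Smart-seq3, a full-length method for single cells in wells that counts molecules by unique molecular identifiers (UMIs). No treatment, animal or culture is named for any cell, so cells are not replicates. Values are therefore given with no test across cells, and the intervals cover counting error only.

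Oxidative phosphorylation takes place in the inner mitochondrial membrane. Complexes I (NADH dehydrogenase) and II (succinate dehydrogenase) pass electrons to ubiquinone, complex III (the cytochrome bc1 complex) passes them on to cytochrome c, and complex IV (cytochrome c oxidase) passes them to oxygen. Complex V, the ATP synthase, uses the resulting proton gradient to make ATP. Most subunits are encoded in the nucleus, a few core subunits of every complex except II are encoded in mitochondrial DNA, and both sets have to be made for a complex to assemble. Acinar cells of the intact pancreas depend on this pathway for the ATP that enzyme synthesis and secretion use.

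The nuclear factors NRF1, the ETS-family factor GABP and YY1 are textbook regulators of these genes, so the stretch around the transcription start was searched for a short form of each motif. RefSeq's promoter table for GRCm38.p6 holds 250 bases before and 50 after the start, and it matched 62 of the 76 members that reached at least 50 UMIs per 1000000 UMIs of the library (CPM). The 3 motifs searched, on both strands, were GCGCATGC for NRF1, CCGGAAG for ETS factors and AAGATGGC for YY1. The NRF1 letters occurred in 10 of these 62 members (16.1%), against 3.05% of all 27025 genes in the table. The ETS letters occurred in 16 members (25.8%), against 9.93% of all genes, and the YY1 letters in 9 members (14.5%), against 3.19%. These are counts of letters in a window, not binding sites. No level was asked of the 27025 genes, unlike of the members, and the share among genes of like level was not computed. The promoters of 5 members, picked as examples, follow, 5′ to 3′ on the strand of the gene, with the matches in capitals. Uqcr11 and Sdhb hold the NRF1 and the ETS letters, Ndufs6 the YY1 letters and Cox6b1 the ETS letters. Cox6b2, a testis-type copy of Cox6b1 that comes up again below, holds none of the 3 in this window. Many of the 62 members hold none of the 3 either, so this does not set Cox6b2 apart. The 5 promoters lie at chr10:80406772-80407071 on the minus strand (Uqcr11), chr4:140961021-140961320 on the plus strand (Sdhb), chr13:73328433-73328732 on the minus strand (Ndufs6), chr7:30626065-30626364 on the minus strand (Cox6b1) and chr7:4753045-4753344 on the minus strand (Cox6b2).
Uqcr11: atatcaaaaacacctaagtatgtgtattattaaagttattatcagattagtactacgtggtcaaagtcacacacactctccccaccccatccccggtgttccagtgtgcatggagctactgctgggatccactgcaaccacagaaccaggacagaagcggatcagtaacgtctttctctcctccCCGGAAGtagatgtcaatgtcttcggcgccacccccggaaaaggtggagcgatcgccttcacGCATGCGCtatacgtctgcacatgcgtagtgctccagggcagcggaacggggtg
Sdhb: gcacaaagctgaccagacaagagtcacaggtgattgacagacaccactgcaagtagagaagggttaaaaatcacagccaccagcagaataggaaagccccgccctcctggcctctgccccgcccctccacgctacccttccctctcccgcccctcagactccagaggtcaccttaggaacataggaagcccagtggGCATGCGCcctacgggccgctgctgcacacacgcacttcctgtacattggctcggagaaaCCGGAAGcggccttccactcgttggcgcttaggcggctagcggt
Ndufs6: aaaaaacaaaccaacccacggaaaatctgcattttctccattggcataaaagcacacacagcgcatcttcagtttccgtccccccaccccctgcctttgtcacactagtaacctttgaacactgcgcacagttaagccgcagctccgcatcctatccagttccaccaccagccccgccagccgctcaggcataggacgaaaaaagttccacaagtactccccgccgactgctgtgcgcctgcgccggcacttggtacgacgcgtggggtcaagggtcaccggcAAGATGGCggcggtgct
Cox6b1: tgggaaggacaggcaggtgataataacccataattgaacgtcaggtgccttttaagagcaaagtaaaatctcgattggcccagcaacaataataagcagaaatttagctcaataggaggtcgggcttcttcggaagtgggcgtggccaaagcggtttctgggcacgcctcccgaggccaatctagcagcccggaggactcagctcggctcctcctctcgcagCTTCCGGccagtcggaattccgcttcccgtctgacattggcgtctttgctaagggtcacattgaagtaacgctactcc
Cox6b2: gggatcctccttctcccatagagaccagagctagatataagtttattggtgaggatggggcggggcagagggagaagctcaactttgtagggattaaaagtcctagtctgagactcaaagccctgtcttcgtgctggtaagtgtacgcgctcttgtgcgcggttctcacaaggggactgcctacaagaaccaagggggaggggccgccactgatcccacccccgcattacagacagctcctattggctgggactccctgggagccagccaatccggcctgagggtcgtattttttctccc

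The cells gave a median of 165267 UMIs (3258 to 329522). The 30 acinar genes of a marker list held a median of only 153.85 CPM per cell, against 11340 CPM for 15 duct genes and 11619 CPM for 10 genes of simple epithelia, so the cells are called organoid cells here. Acinar52 stood apart, with 327111 CPM of acinar genes. Another 6 cells with at least 40000 UMIs carried 1000 CPM or more of fibroblast genes, Fn1 set aside as a matrix gene that epithelial cells also make. In all, 9 cells held at least 25000 CPM of mt-encoded transcripts, and 4 of these 9 had at least 40000 UMIs. Values without such cells stand beside the results where they were computed.

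Nuclear subunit transcripts were abundant and present in nearly every cell. Together the 83 genes held 23421 CPM of the pooled UMIs (exact 95% Poisson interval 23364 to 23478), with a median of 23896.5 CPM per cell and a range of 4552 to 36400. The quartiles of the cells were 20413 and 26826 CPM. Complex I held 7313 CPM (31.2% of these transcripts), complex V 7101 (30.3%), complex IV 5635 (24.1%), complex III 2463 (10.5%) and complex II 908 (3.88%). The count of genes per complex differs, from 37 in complex I to 4 in complex II, and Ndufa4 is counted with complex I by its symbol although its protein is now placed in complex IV. With Ndufa4 moved, complex I held 6835 CPM and complex IV 6114. For comparison, the 31 proteasome genes held 7913 CPM, 78 mitochondrial ribosomal protein genes 6997 CPM and 81 cytosolic ribosomal protein genes 94634 CPM.

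Of the 83 members, 76 reached at least 50 CPM, with levels from 62.4 to 1733 CPM and a median of 259, and 75 had a UMI in at least 95% of cells. All 7 others were below 20 CPM. To compare cells at 1 depth, 40000 UMIs were drawn from each cell that had as many, which was every cell but 18. At that depth a cell still showed a median of 77 members with at least 1 UMI (60 to 80).

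**Figure D1:**
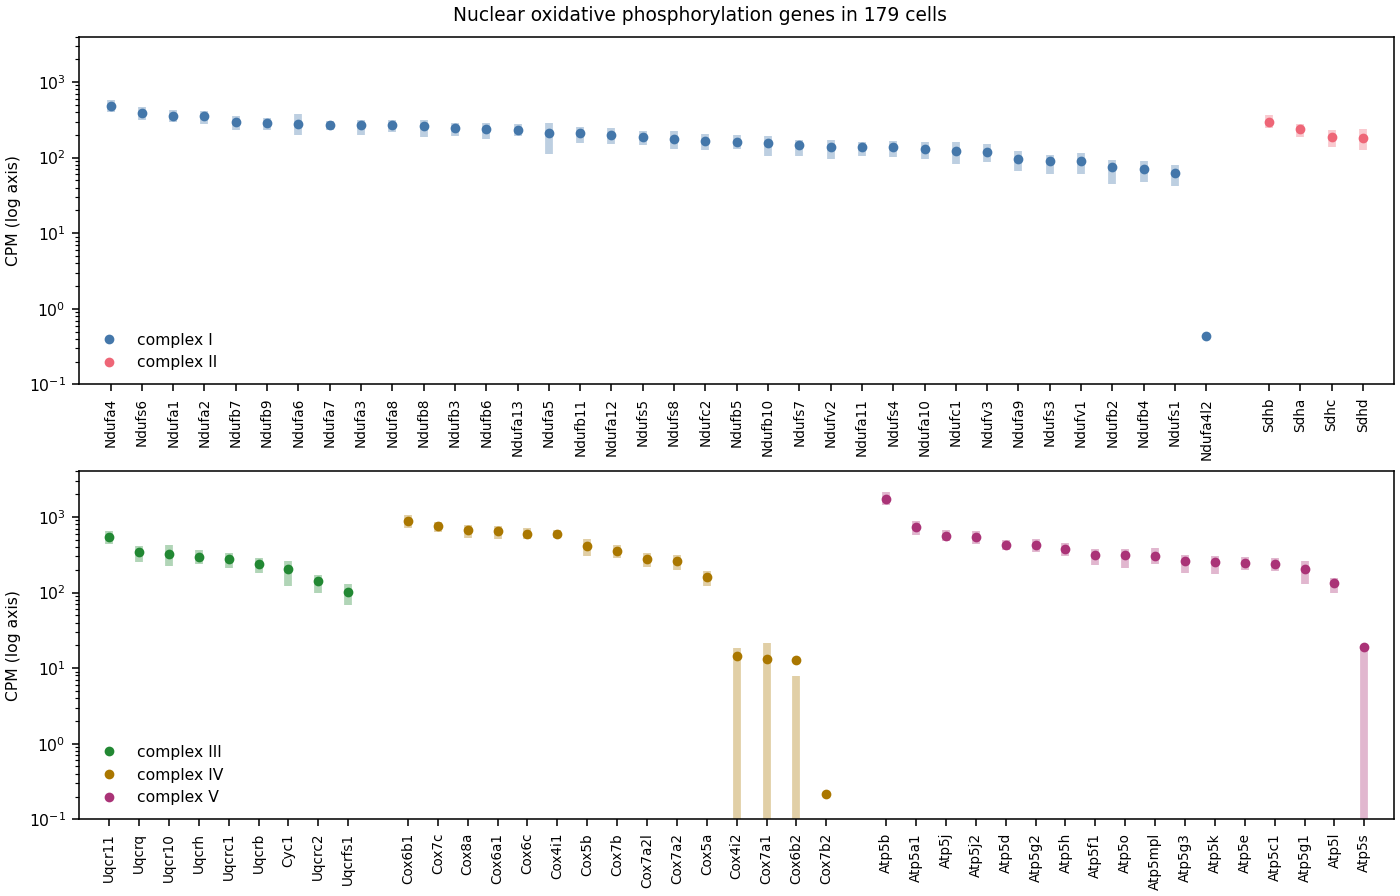
Pooled level of 81 members over all cells (points, CPM, log axis), by complex and in falling order, with the quartiles of the cells as bars; bars that reach the lower edge start at 0, and the Atp5o identifier with 1 UMI is among those not drawn. Most members lie between 62.4 and 1733 CPM, and the 6 others drawn lie below 20.

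In complex V, Atp5b, the catalytic beta subunit, had the highest UMI level of any member, at 1733 CPM (1718 to 1749). Its cells ranged from 361 to 4165 CPM around a median of 1795, and no cell was without it. Atp5a1, the alpha subunit that alternates with beta in the catalytic ring, followed at 730 CPM, and Atp5j, a coupling factor of the stalk, at 567 CPM. UMIs mark one end of a molecule, so their level does not grow with transcript length, but the order was also read from reads per kilobase of transcript and 1000000 reads. On that scale Cox6b1 led all members with 1569, followed by Uqcr11 with 1370 and Cox7c with 1210, and Atp5b stood at 1150. Across the 76 members both scales ranked the genes alike (Spearman rho 0.894 across genes, which are not replicates). Reads per UMI ran from 1.81 to 2.96 in these members and hardly rose with transcript length (rho 0.126). Dividing such reads by length puts short transcripts ahead, so the changed order cannot be read as one of level. Reads also follow UMIs, so part of the likeness of both scales is built in.

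Complex IV was led by small subunits of its nuclear shell, with Cox6b1 at 886 CPM, Cox7c at 751 and Cox8a at 662. The regulatory subunit Cox4i1 stood at 586 CPM (577 to 595) in the pool and was found in every cell, with a range of 48.9 to 950. Complex III was led by Uqcr11 at 538 CPM, Uqcrq at 342 and Uqcr10 at 322, 3 small accessory subunits, and ended with the Rieske iron-sulfur protein Uqcrfs1 at 103.07 CPM. Cyc1, the cytochrome c1 haem subunit, stood at 208 CPM. In complex I the highest were Ndufa4 at 478, Ndufs6, an accessory subunit added late in assembly, at 392 and Ndufa1, a membrane-arm subunit, at 358 CPM. Ndufs1, the largest subunit and carrier of iron-sulfur clusters, was the lowest of the widely detected members, at 62.4 CPM (59.5 to 65.4). In complex II the iron-sulfur subunit Sdhb stood at 298 CPM, the flavoprotein Sdha at 238, and the membrane anchors Sdhc and Sdhd at 188.46 and 183.03. In complexes I and III the leading transcripts thus encoded accessory subunits rather than carriers of redox centres, and in complex V the catalytic ring. The lowest widely detected members of complexes IV and V were Cox5a, a matrix-side subunit of complex IV, at 158.74 CPM and Atp5l, subunit g of the membrane part, at 133.48 CPM. Atp5s stood far below them at 19.01 CPM (17.4 to 20.7), with a UMI in 68.2% of cells; it is counted by its symbol, and its product is a coupling factor rather than a structural subunit.

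In most cases where a subunit has several genes, the widely expressed form held nearly all transcripts. Cox4i1 stood at 586 CPM, and Cox4i2, the form known from lung and low oxygen, at 14.6 CPM (13.2 to 16.04). Cox6b1 stood at 886 CPM, and Cox6b2, known from testis, at 12.8 CPM (11.5 to 14.2). Cox7a2 stood at 262 CPM and Cox7a2l, which joins complexes III and IV into a supercomplex, at 274, whereas the heart and muscle form Cox7a1 stood at 13.4 CPM (12.04 to 14.8). Cox6a1 stood at 644 CPM and Cox8a at 662 CPM; Cox6a2, Cox8b and Cox8c were not analysed here. Cox7b2, another testis form, had 6 UMIs in all cells together (0.216 CPM), against 350 CPM for Cox7b. Ndufa4l2, a form induced by low oxygen, had 12 UMIs (0.431 CPM), 7 of them in Acinar105, one of the fibroblast-rich cells. Apart from the pair Cox7a2 and Cox7a2l, only subunit c of the ATP synthase, which has 3 genes for the same mature protein, was shared more evenly. Atp5g2 held 426 CPM (419 to 434), Atp5g3 264 (258 to 270) and Atp5g1 205 (200 to 210), and their intervals did not overlap.

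Some members share sequence with other annotated genes. Atp5l matched the pseudogene Gm10221 with 100% identity over 56.8% of its transcript, and 2702 UMIs were assigned to Gm10221 against 3714 to Atp5l, so the level of Atp5l, 133.48 CPM, is uncertain. Ndufs3 had a 98.6% match in Gm12251 (583 UMIs, against 2507), and Uqcrb and Atp5h had smaller ones. The 2nd identifier of Atp5o had 1 UMI and overlaps Donson, whose 532 UMIs cannot be told apart from it where the strand of counting is not given. The pattern also matched 12 identifiers that are not protein coding, led by Ndufb1-ps with 138.47 CPM and Ndufb4c with 47.5 CPM, and these are not members.

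The mitochondrial genome supplied fewer counted transcripts than the nuclear genes. Its 13 mRNA genes held 9753 CPM, a ratio of 0.416 to the nuclear members (0.415 to 0.418), with a cell median of 0.401 and a range of 0.107 to 19.3. The ratio exceeded 1 in 9 cells. mt-Co1, the catalytic core of complex IV, held 4154 CPM, mt-Cytb of complex III 1931, and mt-Nd1, mt-Nd2 and mt-Nd4 of complex I 1658, 707 and 575. The others were lower, with mt-Nd4l at 307 CPM, mt-Nd5 at 181.53, mt-Co2 at 65.1, mt-Nd3 at 60.4, mt-Nd6 at 51.7, mt-Atp8 at 26.0, mt-Atp6 at 25.5 and mt-Co3 at 12.1. By complex, mt-encoded transcripts came to 0.784 of the nuclear ones in complex III, 0.751 in complex IV, 0.484 in complex I and 0.00726 in complex V. Near-identical nuclear copies of 3 of these genes held more UMIs than the genes themselves, so the values of complexes IV and V are uncertain. The pseudogene Gm28437 had 83191 UMIs, against 338 for mt-Co3 with 100% identity, Gm10925 had 23798 against 710 for mt-Atp6, and Gm28661 had 21806 against 1811 for mt-Co2. With all such copies added the ratio of mt-encoded to nuclear transcripts was 0.619, a setting chosen after seeing the data.

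Across the thinned cells, nuclear and mt-encoded levels did not go up and down together. Spearman's rho of their log2(CPM + 1) sums was -0.213 and Pearson's r -0.469, each the mean of 10 thinnings, and r without the 2 cells farthest from the nuclear median was -0.325. Points share a library total, so a high share of one set leaves less for the other, and the values are a description. The relation rests in part on the 4 deep cells rich in mt-encoded transcripts: Acinar16, Acinar156, Acinar162 and Acinar173 held 4552 to 7643 CPM of nuclear and 29079 to 39698 CPM of mt-encoded transcripts, against medians of 23941 and 9151 CPM in the other deep cells. Their cytosolic ribosomal protein genes were low too, with a median of 24818 CPM, against 99873 CPM in the others. Without these 4 cells rho was -0.151 and r -0.120. By complex, rho with the mt-encoded sum was -0.278 for complex V, -0.223 for III, -0.191 for II, -0.162 for I and -0.119 for IV.

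**Figure D2:**
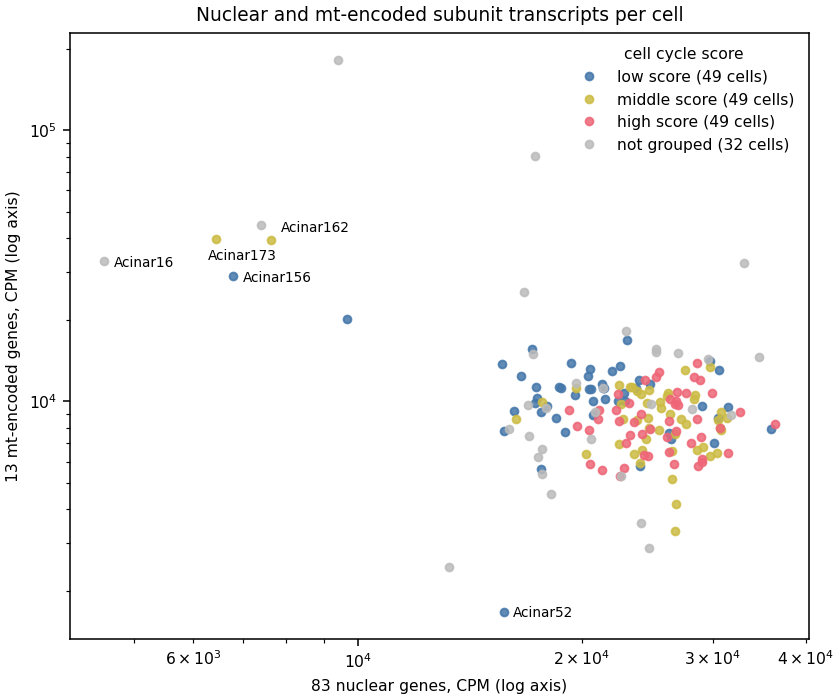
Summed level of the 83 nuclear members (horizontal) and of the 13 mt-encoded genes (vertical) in each cell, in CPM on log axes; colours give the cell cycle score group, grey cells were in no group, and 5 cells named in the text are labelled. Most cells form 1 cloud, with Acinar16, Acinar156, Acinar162 and Acinar173 at the upper left and Acinar52 at the lower edge.

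The nuclear level went with other nuclear genes for mitochondria. Over the same cells its rho was 0.797 with the sum of 78 mitochondrial ribosomal protein genes, 0.762 with 16 genes of the tricarboxylic acid cycle and 0.690 with 47 assembly factors of the complexes, against 0.569 with the proteasome and 0.561 with cytosolic ribosomal proteins. Pearson's r did not set the mitochondrial lists apart in this way. It was 0.813, 0.709 and 0.767 for these lists in that order, against 0.706 for the proteasome and 0.798 for cytosolic ribosomal proteins. The rho of the nuclear level with the total UMIs of a cell was -0.0381. All of these sums share the library total. Among 4408 other genes with a mean of at least 2 UMIs in thinned cells, whose median rho was 0.0466, the 5 most like the nuclear level were Dbi, the acyl-CoA binding protein, at 0.792, Slc25a5, the ADP/ATP carrier of the inner membrane, at 0.774, Ambp, a secreted protein precursor that is also on the duct list, at 0.733, Cycs, cytochrome c itself, at 0.732 and Gsta3, a glutathione transferase, at 0.717. Without the 4 cells rich in mt-encoded transcripts these 5 values lay between 0.698 and 0.776.

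Single members varied less between cells than most genes of their level. Excess variation, the squared coefficient of variation beyond counting noise divided by its median among the 100 genes nearest in mean level, was at least 2 in 5 of the 80 members with a mean of at least 0.5 UMI (6.25%), against 29.4% of 13639 genes. The members' median was 0.546, with 66 of 80 below 1, close to the 0.438 of proteasome genes and the 0.633 of cytosolic ribosomal protein genes, whereas the 13 mt-encoded genes had a median of 2.54, with 8 of 13 at 2 or more. Without the 4 deep cells rich in mt-encoded transcripts that median was 1.28, with 4 of 13 at 2 or more, and the members' median was 0.517. Cox4i1 was among the most even members, at 0.236.

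The 5 least even members were Atp5s at 13.6, Cox6b2 at 11.4, Cox4i2 at 3.88, Ndufs3 at 2.83 and Atp5o at 2.08. Several of these values rest on 1 cell. Acinar96 held 20.04% of the 529 UMIs of Atp5s, the coupling factor B, and stood at 732 CPM, against a cell median of 10.3, and Acinar74 held 369 UMIs of Atp5o, the stalk subunit OSCP, at 1193 CPM, against a median of 295. Acinar74 also held 6.42% of the UMIs of Ndufs3, a core subunit of the matrix arm, at 521 CPM, against a median of 78.1. Without each gene's highest cell the values were 0.954 for Atp5o and 0.675 for Ndufs3, so both fell below 2, while Atp5s (4.62), Cox6b2 (11.9) and Cox4i2 (3.38) stayed above it. Cox6b2 had at least 50 CPM in 12 cells, and its 10 richest cells held 60.96% of its UMIs, against 12.6% for Cox6b1.

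Pairs of members moved together, most within and between complexes III, IV and V. In the thinned cells the median rho of the 847 pairs of the same complex was 0.211 (quartiles 0.132 and 0.309), and that of the 2003 pairs of different complexes was 0.266 (0.188 and 0.343). Of the same-complex pairs 630 belong to complex I, so their median mainly gives that complex. Within complexes it was 0.388 in V, 0.345 in IV, 0.331 in III, 0.205 in II and 0.180 in I. Pairs within complex V were above those of V with IV (0.373), III (0.356), II (0.287) and I (0.255). Pairs within complex IV were above those of IV with III (0.339), II (0.272) and I (0.248), but below those with V. Pairs within complex I were below those of I with every other complex (0.206 to 0.255). Without the 4 cells rich in mt-encoded transcripts the medians were 0.346 within V, 0.302 within IV, 0.296 within III, 0.176 within II and 0.143 within I. Complex I has the most genes and many low ones, and the part of their few UMIs in its low value was not tested. Pairs of 9 mt-encoded genes had a median of 0.454, pairs of 80 cytosolic ribosomal protein genes 0.427, and pairs of proteasome genes 0.189. Between members and mt-encoded genes the medians were below 0 for every complex, from -0.126 in I to -0.206 in V.

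**Figure D3:**
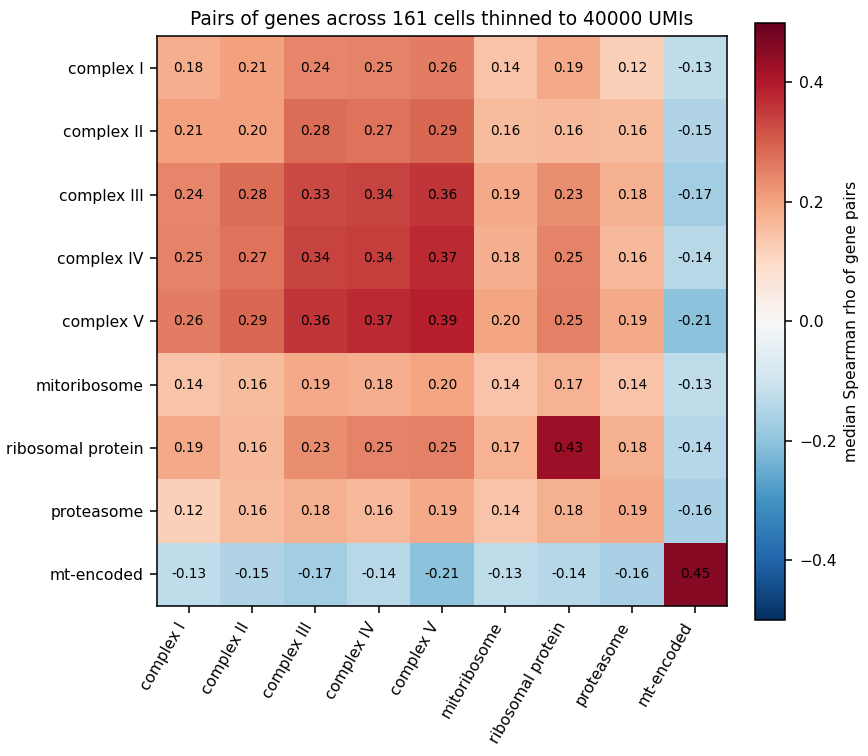
Median Spearman rho of gene pairs within (diagonal) and between lists across the thinned cells, as numbers and colour. Values are above 0 among the nuclear lists, highest at 0.39 within complex V, 0.43 within ribosomal protein genes and 0.45 within mt-encoded genes, and below 0 between mt-encoded genes and every other list.

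Against the sum of all other members, Atp5b had the highest rho, 0.803, followed by Atp5a1 at 0.750 and Cox8a at 0.701, and 38 of 76 members reached 0.5. The lowest were Cox7a2l at 0.0148, Ndufa7, an accessory subunit of complex I, at 0.0928 and Ndufs4, another, at 0.152. The thinned mean of Cox7a2l was 11.1 UMIs, close to the 12.9 of Uqcr10, whose rho was 0.671.

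To relate the members to division, cells were ordered by the summed CPM of 25 genes of G2 and mitosis and 20 of DNA replication, and parted into 3 groups of 49 cells. Cells with under 40000 UMIs were left out, as were 14 with at least 1000 CPM of the fibroblast list, Fn1 included. The high-score cells scored 5841 to 11121 CPM, the middle-score cells 1175 to 5801 and the low-score cells 146.31 to 1166. The score has no gap, with 36 cells within 20% of the upper boundary and 9 within 20% of the lower one, so the groups are ranges and not cell types.

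The nuclear members were higher in cells with a high cycle score. They held 25284 CPM in the high-score cells, against 21191 CPM in the low-score cells, a ratio of 1.19 (1.19 to 1.20), and the middle-score cells held 24752 CPM. High-score cells ranged from 19236 to 36400 CPM around a median of 26018, and low-score cells from 6787 to 35948 CPM around a median of 20688. The ranges overlap, but 45 of the 49 high-score cells lay above the median of the low-score cells. The ratio was 1.26 for complex V (7803 CPM in the high-score cells, 6193 in the low-score cells), 1.24 for III (2696 and 2173), 1.19 for II (985 and 825), 1.17 for I (7846 and 6692) and 1.12 for IV (5954 and 5309). The rank correlation (Spearman) between the nuclear sum and the score was 0.448 over the thinned cells.

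**Figure D4:**
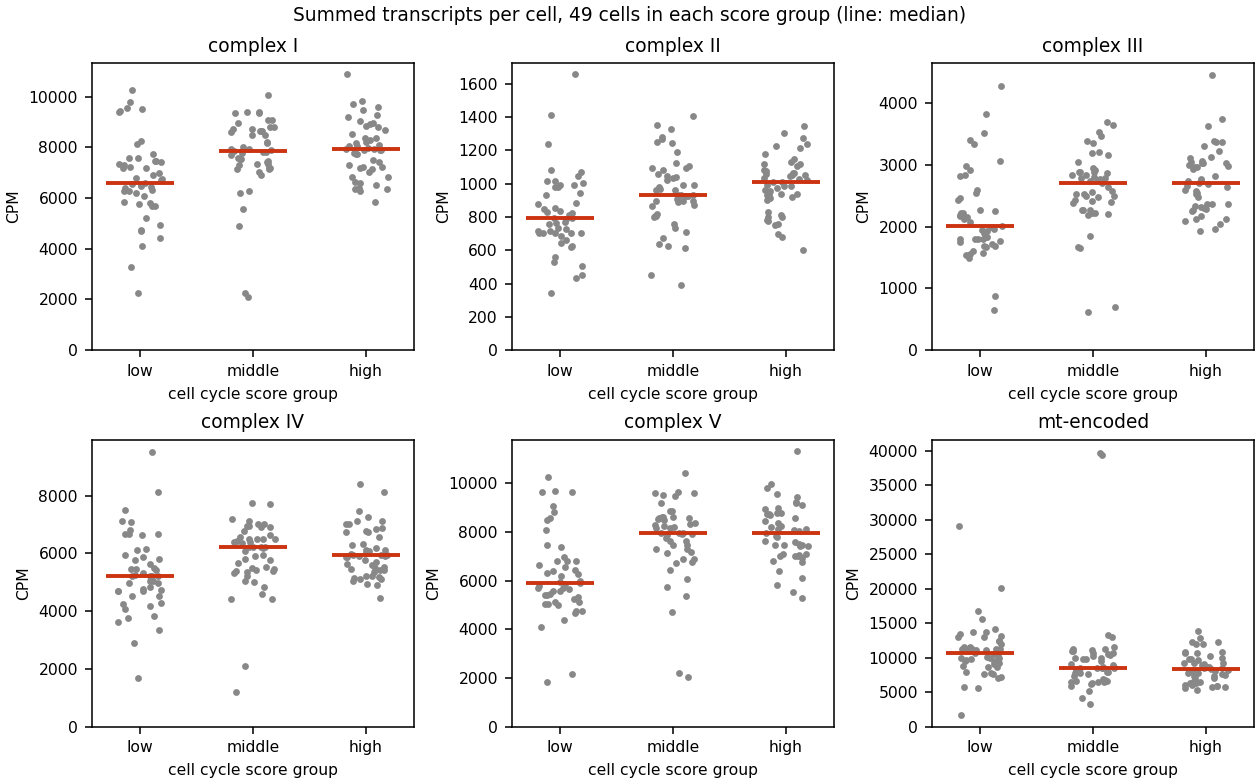
Summed level of each complex and of the mt-encoded genes per cell (points, CPM, axes from 0), in low-score, middle-score and high-score cells, 49 each; lines are medians. For each complex the median of the high-score cells lies above that of the low-score cells, and for mt-encoded genes it lies below.

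The shift was shared by most members and was small for most of them. Of 80 members with at least 100 UMIs in the high-score and low-score cells together, 69 had a ratio above 1, and their median was 1.22, against 5844 of 11692 genes and a median of 1.0 over all genes with that many UMIs. The count above 1 was 65 to 72 under the 14 other scalings and settings tried. Only 4 members (5%) were higher by 1.5-fold or more in the high-score cells, and 2 (2.5%) were lower by as much, against 18.1% of all genes higher and 16.9% lower. The genes of this comparison were not matched to the members in level, and counting error is larger in genes with few UMIs. The 31 proteasome genes gave a ratio of 1.26 with none of 31 past 1.5-fold, and cytosolic ribosomal protein genes 1.08. Mitochondrial ribosomal protein genes gave 1.43, with 31 of 77 past 1.5-fold, a larger share than among the members.

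Within complexes, neighbouring subunits differed in their ratios. In complex II the anchor Sdhd had 205 CPM in the high-score cells, against 147.90 CPM in the low-score cells (1.39, 1.29 to 1.49), whereas its partner anchor Sdhc had 196 and 189.33 CPM (1.03, 0.964 to 1.11), and the catalytic subunits Sdha and Sdhb were at 1.19 and 1.20. In complex III the core proteins Uqcrc1 and Uqcrc2 had ratios of 1.30 and 1.10, the Rieske protein Uqcrfs1 1.25 and the hinge protein Uqcrh 0.937. In the soluble F1 part of complex V the ratios were 1.26 for Atp5b, 1.22 for Atp5a1, 1.20 for the gamma subunit Atp5c1, 1.11 for the delta subunit Atp5d and 1.08 for the epsilon subunit Atp5e. Among core subunits of complex I that the nucleus encodes, Ndufv1 (1.34), Ndufs8 (1.33), Ndufv2 (1.32) and Ndufs3 (1.30) had higher ratios than Ndufs1 (1.10) and Ndufs7 (1.06). Ndufs3 was at 1.13 without Acinar74. The members with a ratio below 1 were Uqcrh, Ndufa6, Ndufa7, Ndufs4, Ndufv3, Atp5l and, in complex IV, Cox4i1, Cox4i2, Cox6b2, Cox7a1 and Cox7a2l. Of these 11, Cox4i1, Cox7a1, Ndufs4, Ndufv3 and Atp5l had intervals that include 1. Those 5 and Ndufa7 were above 1 under at least 1 of the 14 other scalings and settings, whereas Uqcrh, Ndufa6, Cox7a2l, Cox4i2 and Cox6b2 were below 1 under each of them.

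Ndufa5, a subunit of the matrix arm of complex I, had the highest ratio of all, 2.15 (1.996 to 2.31). It held 282 CPM in the high-score cells, against 131.15 CPM in the low-score cells. Single cells ranged from 92.8 to 674 CPM (median 278) among the high-score cells and from 16.3 to 392 CPM (median 110) among the low-score cells. It was above the median of the low-score cells in 48 of the 49 high-score cells. Cyc1 held 251 CPM in the high-score cells and 150 CPM in the low-score cells, a ratio of 1.68 (1.56 to 1.80), and 47 of 49 cells were above the median of the low-score cells. Atp5o held 392 and 230 CPM in high-score and low-score cells, a ratio of 1.70 (1.61 to 1.80), and 1.58 without Acinar74. Atp5g1 reached 1.49 (231 and 154.63 CPM in high-score and low-score cells), above its fellow genes for subunit c, Atp5g3 at 1.33 and Atp5g2 at 1.31. This order depended on the cells: among those numbered up to 96 Atp5g1 was at 1.24, Atp5g3 at 1.26 and Atp5g2 at 1.25, and among those from 97 they were at 1.95, 1.51 and 1.33. Atp5s reached 1.89 (1.52 to 2.37), but without Acinar96 its ratio was 1.19 (0.935 to 1.52), so its place rests on that cell.

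The 2 members lower by 1.5-fold or more were minor forms of complex IV. Cox4i2 held 7.04 CPM in the high-score cells, against 25.6 CPM in the low-score cells, a ratio of 0.275 (0.205 to 0.365), with cells from 0 to 87.6 CPM (median 0) among the high-score cells and from 0 to 182.20 CPM (median 13.8) among the low-score cells. Cox6b2 held 4.94 CPM in the high-score and 24.8 CPM in the low-score cells, a ratio of 0.199 (0.141 to 0.275), but it had a UMI in only 14 and 21 cells of these groups. Among cells numbered up to 96 in their titles its ratio was 0.0688, and among those numbered from 97 it was 0.620. The corresponding values of Cox4i2 were 0.236 and 0.360. With the DNA replication list alone Cox4i2 was at 0.575 and Cox6b2 at 0.193. With the G2 and mitosis list alone they were at 0.267 and 0.167. Their common counterparts differed little, with Cox4i1 at 592 and 597 CPM in high-score and low-score cells (0.992, 0.954 to 1.03) and Cox6b1 at 937 and 869 CPM (1.08, 1.04 to 1.11).

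The other low ratios were those of Ndufa6, an accessory subunit of the matrix arm, at 0.720 (249 and 346 CPM in high-score and low-score cells), Cox7a2l at 0.759 (243 and 320 CPM) and Cox7a1 at 0.896 (12.3 and 13.7 CPM). Ndufa6 was below the median of the low-score cells in 42 of 49 high-score cells, and Cox7a2l in 43 of 49. Both ratios therefore lay on the other side of 1 from that of the members' sum. Across the thinned cells, however, rho with the sum of all other members was 0.265 for Ndufa6 and 0.0148 for Cox7a2l.

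**Figure D5:**
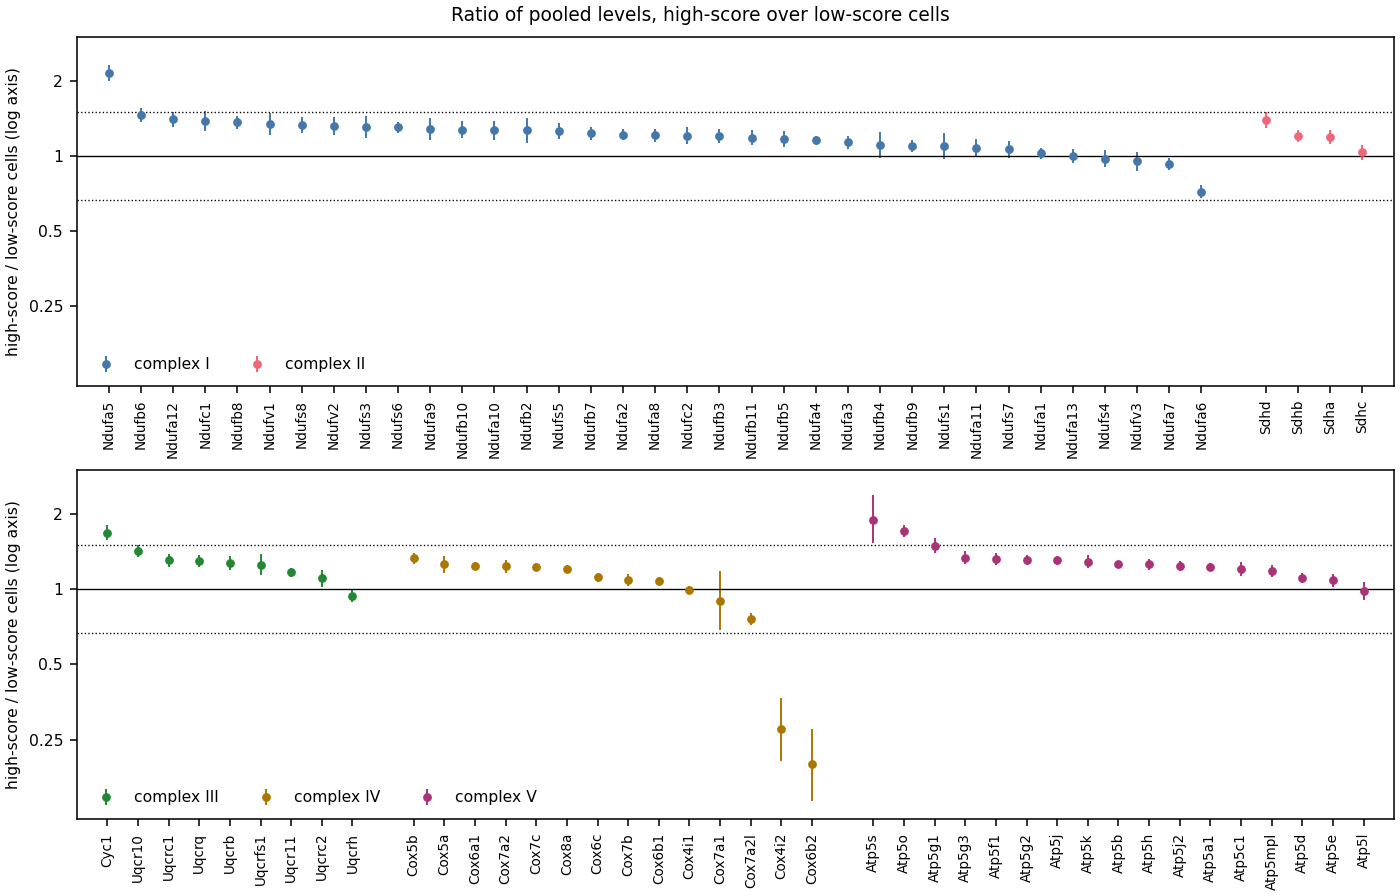
Ratio of the pooled level in high-score over low-score cells for 79 members (points, log axis), with 95% intervals that cover counting error, by complex; dotted lines mark 1.5-fold in each direction. Most points lie between 1 and 1.5, with Ndufa5 at 2.15 at the upper end and Cox6b2 at 0.199 at the lower end.

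The mt-encoded genes went the other way. They held 8392 CPM in the high-score cells, against 10725 CPM in the low-score cells, a ratio of 0.782 (0.775 to 0.790), and 41 of 49 high-score cells were below the median of the low-score cells. All 13 genes had a ratio below 1, from 0.499 for mt-Nd3 to 0.913 for mt-Nd1, as they did under the other settings tried except the G2 and mitosis list alone and 2 equal groups of cells, where 1 of 13 was above 1. The most abundant, mt-Co1, stood at 0.748 (3532 and 4720 CPM). Near-identical nuclear copies, which held more UMIs than mt-Co3, mt-Atp6 and mt-Co2 themselves, were not added in these groups. The ratios of these 3 genes are therefore uncertain, and that of the sum leaves the copies out. The pooled ratio of mt-encoded to nuclear transcripts was thus 0.332 in the high-score cells, 0.396 in the middle and 0.506 in the low-score cells. Within the groups, rho of the nuclear and mt-encoded sums was 0.125 in the high-score, -0.257 in the middle-score and -0.135 in the low-score cells. Without cells rich in mt-encoded transcripts it was -0.158 in the middle-score and -0.0796 in the low-score cells. In the low-score cells r was -0.264, and 0.0813 without the 2 cells farthest from the nuclear median, so no direction can be read there.

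Several lists that are not mitochondrial moved with the score as well. Median UMIs per cell were 197769 in the high-score cells, against 153722 in the low-score cells. The acinar list held 145.58 CPM in the high-score cells and 9058 CPM in the low-score cells, among which is Acinar52, the duct list 10285 and 13166 CPM, and the epithelial list 10194.5 and 14057 CPM. The part of these differences in the members' ratios was not tested. Without the 4 cells that held at least 10000 CPM of acinar genes the nuclear ratio was 1.16, and among cells numbered up to 96 and from 97 it was 1.14 and 1.28, so it stayed above 1 in each.

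Genes that build or regulate the complexes were also read. Of 46 assembly factors with enough UMIs, 12 (26.1%) were higher by 1.5-fold or more in the high-score cells and 1 (2.17%) was lower, against the 18.1% and 16.9% of all genes, with a list ratio of 1.22. Among the 3 most abundant, Uqcc2, which assists complex III, had 239 CPM in the high-score and 157.80 CPM in the low-score cells (1.51), Coa3, which assists complex IV, 196 and 160.70 CPM (1.22), and Cox14, another factor of complex IV, 173.75 and 174.03 CPM. Of 17 regulators, 4 (23.5%) were higher by that much, near the 18.1% of all genes, and none lower. The 3 most abundant were Esrra, a nuclear receptor, at 118.36 CPM in the high-score and 136.03 CPM in the low-score cells, Nrf1 at 82.1 and 50.3 CPM, and Yy1 at 66.9 and 75.2 CPM. Tfam, which packs and transcribes mitochondrial DNA, had a ratio of 2.53, and 2.05 without the cell richest in it. The coactivator Ppargc1a had 38 UMIs in all cells together (1.37 CPM). Of 16 genes of the tricarboxylic acid cycle 2 (12.5%) were higher by 1.5-fold or more, also near the 18.1% of all genes, and the most abundant, Cs, Mdh2 and Idh3b, had ratios of 1.29, 1.30 and 0.963. Cycs, the mobile carrier between complexes III and IV, held 606 CPM in the high-score and 317 CPM in the low-score cells, a ratio of 1.92, and in 49 of 49 high-score cells it was above the median of the low-score cells.

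In cells with markers of other cell types, member transcripts made up a smaller share of the library than in most organoid cells. Acinar52, rich in digestive enzyme transcripts, held 15697 CPM of nuclear members (15123 to 16287), against a median of 23820 CPM in the other deep cells, and 1679 CPM of mt-encoded transcripts, against 9246. Its cytosolic ribosomal protein genes stood at 100222 CPM, against 99360 CPM. Other cells with at least 10000 CPM of acinar genes were Acinar55 (24093 CPM of them), Acinar155 (10276.5) and Acinar98 (12178.5). They held 15728, 17418 and 22495 CPM of nuclear members, and 7804, 10290 and 13518 CPM of mt-encoded transcripts. The members of Acinar52 were not lowered alike: Sdha stood at 38.9 CPM (15.6 to 80.2), against a median of 238 CPM in the other deep cells, whereas Atp5j2, subunit f of the membrane part, stood at 567 CPM (462 to 689), against 538 CPM. These 2 genes were chosen after their values were seen. The 6 fibroblast-rich cells held 15955 to 20564 CPM, with a median of 17233, against a median of 23962 CPM in the other deep cells, whose lower quartile was 20619. Each complex was lower in these 6 cells, with medians of 4991 CPM for complex V, against 7442 CPM in the other deep cells, and of 4062 CPM for complex IV, against 5769 CPM. Cox4i1 had a median of 391 CPM there, against 593 CPM. Lists outside the members were lower in these 6 cells too. Cytosolic ribosomal protein genes had a median of 67883 CPM, against 99984 CPM in the other deep cells. The medians were 4738 against 7209 CPM for mitochondrial ribosomal protein genes and 7047 against 8155 CPM for proteasome genes. As the enzyme transcripts of Acinar52 fill a large part of its library, fewer member molecules and a larger total cannot be told apart there. Blocks of 24 title numbers had similar nuclear medians, from 22558 to 24970 CPM, and mt-encoded medians from 8031 to 11057 CPM.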

How the data were processed

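The authors deposited raw UMI counts and raw read counts per cell, with 32100 Ensembl identifiers as columns; the labels name no normalization. Per the submitters' processing notes, the tools include STAR and featureCounts and the builds named are GRCm38 and mm10, with no versions. The sources used here do not state how UMIs were collapsed or whether counting used strand. Symbols of 31985 identifiers and gene positions came from GENCODE vM21 (GRCm38).

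All 179 cells with at least 1000 UMIs were used. No animal or culture is named, so no test was run across cells. Levels are pooled UMIs per 1000000 (CPM) with exact 95% Poisson intervals, and ratios have exact conditional binomial intervals; both cover counting error only. Correlations are means over 10 thinnings of each of 161 cells to 40000 UMIs, the number of thinnings chosen after seeing that single ones moved a gene's rho. Excess variation used cells with at least 40000 UMIs. Near-identical copies are blastn matches of at least 97% identity over at least 50% of a transcript. TMM factors from edgeR were one alternative scaling, beside read counts, other totals, cell filters and score lists. Of the computations, only the formula of the group ratio and the excess variation were first tested on simulated counts. Per the labels each sample is 1 cell, so doublets were not called. One member counted in the totals is not reported here by name or drawn in the plots of single members.

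The members, lists and settings were chosen with earlier results of these data known. Named are the 3 highest and the lowest members of each complex, members under 1 CPM, subunits with several genes, the 5 highest and lowest ratios, the 5 highest excess variations, the 5 most alike other genes, the 13 mt-encoded genes and the 3 highest of each other list; further members were named for their role or as comparison after their values were seen. The tools used were blastn 2.17.0, R 4.3.3 with edgeR 4.0.16, and Python 3.11.15 with matplotlib 3.10.9, scipy 1.17.1, pandas 2.3.3 and numpy 2.4.6.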

Additional observations from a re-analysis of the deposited data

How the results depend on the processing

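In this section fibroblast-rich cells are those with at least 1000 CPM of the fibroblast list, Fn1 included. The summed nuclear level stayed within 23350 to 24050 CPM with reads (23569), equal weight per cell (23350), no fibroblast-rich and enzyme-rich cells (24050), no cells rich in mt-encoded transcripts (23738) and with Ndufab1 and Cycs added (24031). The level was 26180 with mt- and ribosomal protein genes out of the total. The ratio of mt-encoded to nuclear transcripts was 0.665 in reads and 0.698 with equal weight per cell, where cells with few UMIs and many mt-encoded ones count in full, and 0.619 with nuclear copies added. It was 0.414 without the numbers 97 to 120, 0.410 without fibroblast-rich and enzyme-rich cells, 0.407 in cells with at least 40000 UMIs and 0.381 without cells rich in mt-encoded transcripts. The rank correlation of nuclear and mt-encoded sums stayed below 0 in all 9 alternatives, and was -0.335 for numbers from 97, against -0.132 up to 96. The median rho within complexes was 0.375 without thinning.

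The dividing ratio of the nuclear sum stayed above 1 in all 14 alternatives: 1.23 in reads, 1.11 between 2 equal groups of cells, 1.20 with the DNA replication list alone, 1.25 with fibroblast-rich cells kept and 1.25 with the list without Fn1, 1.24 with TMM factors, 1.21 with equal weight, 1.16 without enzyme-rich cells, 1.18 without cells rich in mt-encoded transcripts, 1.14 for numbers up to 96 and 1.28 from 97. That of the mt-encoded sum stayed below 1 in all 13: 0.791 in reads, 0.865 between 2 equal groups, 0.816 with the DNA replication list, 0.850 with the G2 and mitosis list, 0.764 with the list without Fn1, 0.815 with TMM factors, 0.761 without enzyme-rich cells, 0.804 without cells rich in mt-encoded transcripts and 0.768 from 97. None of these 13 added the nuclear copies. Members higher by the fold came to 2 between 2 equal groups, 7 with fibroblast-rich cells kept, 8 with the list without Fn1, 13 for numbers from 97 and 1 at 2-fold; members lower came to 1, Cox4i2, for numbers from 97. Without each gene's highest cell, 3 members had an excess variation of at least 2. The causes were not tested. The list without Fn1, the split of title numbers, the added nuclear copies, and leaving out cells rich in mt-encoded transcripts or, for the dividing ratios, in enzymes alone were chosen after seeing the data. No paired analysis was possible because all cells form 1 group and no label pairs them. Depth limits low members such as Cox6b2, since 1 UMI is worth 25 CPM in a thinned cell.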
